A study of Mus musculus with 4 samples.

Results

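Molecular chaperones of the cytosol and of mitochondria were followed in the transcriptome of MLE-12 cells, a mouse lung epithelial line that was immortalized, after exposure to 1-nitropyrene, a nitrated polycyclic hydrocarbon of diesel exhaust. The genes were 46 named members of the HSP70, HSP90, HSP60, J-domain, BAG, CCT/TRiC, prefoldin and small heat shock families with the heat shock factors Hsf1 and Hsf2, out of 53465 gene identifiers in the count table, and all 46 were matched by symbol. They were listed by family, but the list was chosen with earlier results of these data known. Control cells (n = 2 libraries, replicates 1 and 2) were grown without the compound, and treated cells (n = 2 libraries, replicates 2 and 3) with 5 µM 1-nitropyrene for 12 h. The labels state no genetic change and no vehicle for either group. MLE-12 is a single line, and the labels name no separate cultures, so the spread between these libraries may be technical. The p-values of the main test use only that spread, taken as a trend over abundance. They take no account of a gene's own replicates.

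Chaperones bind unfolded stretches of other proteins and let them reach or regain their folded state. HSP70 proteins bind and release short hydrophobic segments in a cycle that J-domain proteins start, by stimulating ATP hydrolysis, and that exchange factors of the HSP110 and BAG families end. HSP90 takes over late folding steps of kinases and receptors from HSP70, prefoldin and the ring-shaped TRiC complex fold actin and tubulin, and HSP60 with its lid HSP10 folds proteins imported into mitochondria. The transcription factor HSF1 is released when unfolded proteins occupy chaperones, forms trimers, and induces chaperone genes through heat shock elements, which are arrays of alternately inverted nGAAn units.

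The total count per library was 10773733 and 6908055 in control libraries and 8797502 and 8601825 with 1-nitropyrene, so that 3 counts, used here as the limit that a count of 0 allows, correspond to 0.278 to 0.434 CPM, the counts of a gene scaled to a common library total (TMM-normalised in the results). Ribosomal RNA loci took 44.3% to 46.1% of the counts. A low count in this table need not mean that a gene was not expressed: 80 ribosomal protein genes, which every cell uses, had a median of 10 and 4.5 counts in the 2 controls and 5 and 6 counts in the 2 exposed libraries. The labelled cell type could not be checked by its markers, since 13 of 16 lung epithelial markers, among them E-cadherin (Cdh1), Krt8, Krt18, Sftpb and Nkx2-1, had 0 counts in every library, and the summed level of all 16 was 8.03 to 10.3 CPM in control libraries and 8.11 to 9.55 CPM with 1-nitropyrene, nearly all of it Abca3. Of 11 fibroblast and mesenchyme markers 1 was at 0, and their summed level was 5.88 to 11.6 CPM in control libraries and 1.06 to 3.34 CPM with 1-nitropyrene. Leukocyte markers (3 of 6 at 0) and endothelial markers (2 of 5 at 0) summed to at most 0.287 CPM in any library. The fibroblast marker sum moved with the treatment, and its part in the results below was not tested. In bulk RNA, fewer cells of a type and less RNA per cell cannot be told apart.

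Of the 46 chaperone genes 33 had enough counts to be tested. With 1-nitropyrene 11 of the 33 were higher and 2 were lower (edgeR quasi-likelihood test, adjusted p under 0.05), or 33.3% and 6.06%. Among all 7738 genes tested 13.2% were called higher, 11.2% lower and 24.5% in either direction. Over the 4698 genes whose mean reached 10 CPM, which all of the 33 chaperone genes but Hspa14, Pfdn5 and Hsf2 also had, the shares were 19.8% higher and 14.4% lower. The median log2 fold change of the 33 genes was 0.10, against 0.00 over all genes tested. A positive value was found for 28 of the 33, against 3839 of all 7738 genes tested. With each library left out, the median of the tested members lay between 0.03 and 0.12. The rises were small: those called higher lay between 1.084-fold and 1.31-fold. Both treated libraries lay above both controls for 16 members and below them for 2, against 30.0% and 29.2% of all genes tested.

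**Figure D1:**
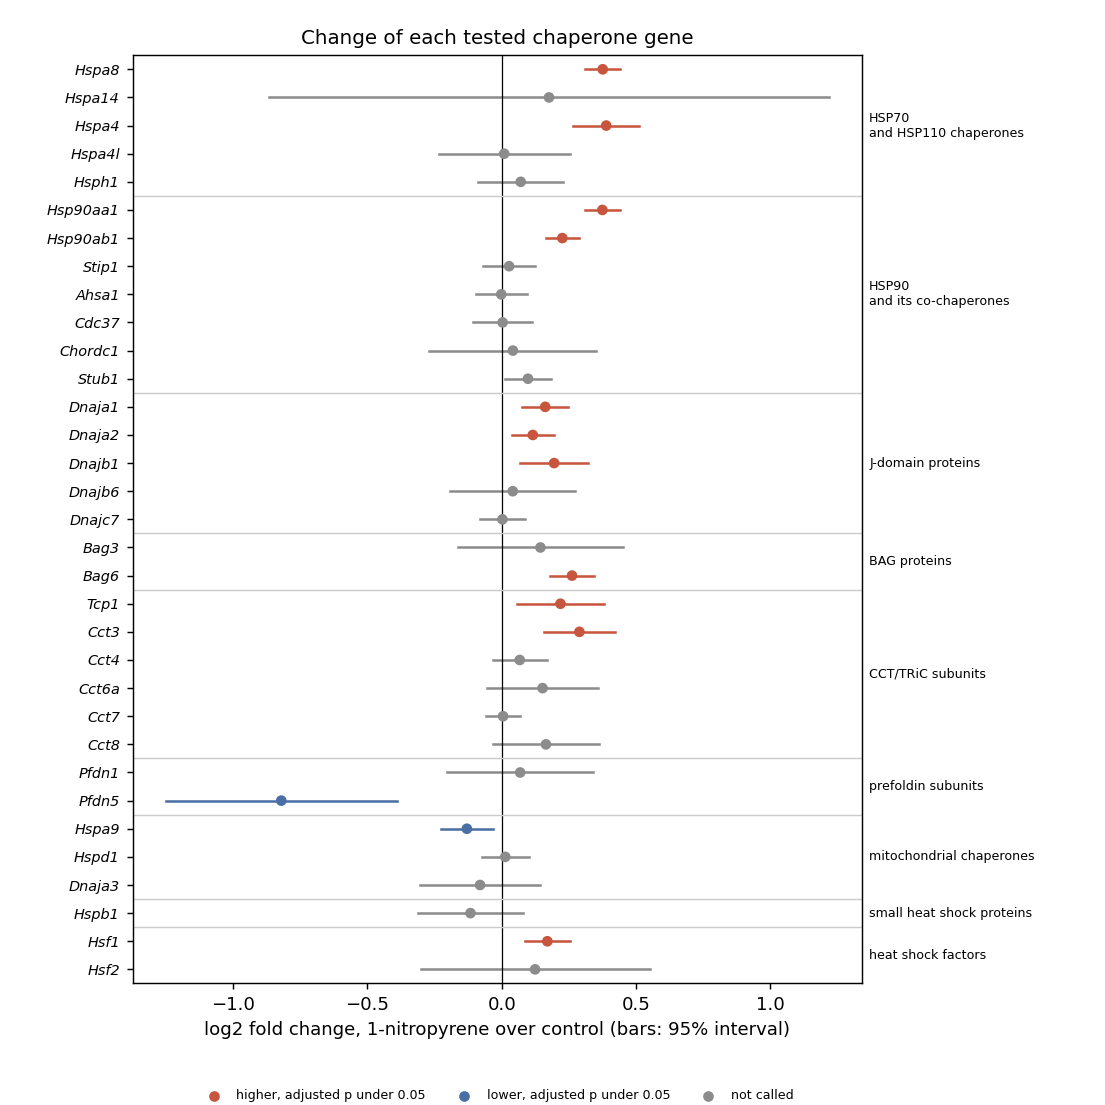
The log2 fold change of 1-nitropyrene over control is drawn for each of the 33 tested chaperone genes, with bars for the 95% interval and colours for the call, grouped by role. The 11 genes called higher lie between 0 and 0.5 on the log2 scale, and Pfdn5 at -0.82 lies apart from all others.

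Together the 46 genes held 5202 and 5103 CPM in control libraries and 5682 and 5793 CPM with 1-nitropyrene, a difference of 585 CPM between the group means. Hspa8, Hsp90aa1 and Hsp90ab1 made up 62.4% of that difference. With 2 libraries against 2 the exact permutation test of such a sum cannot go below p = 0.333, so these sums are given without a test.

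**Figure D2:**
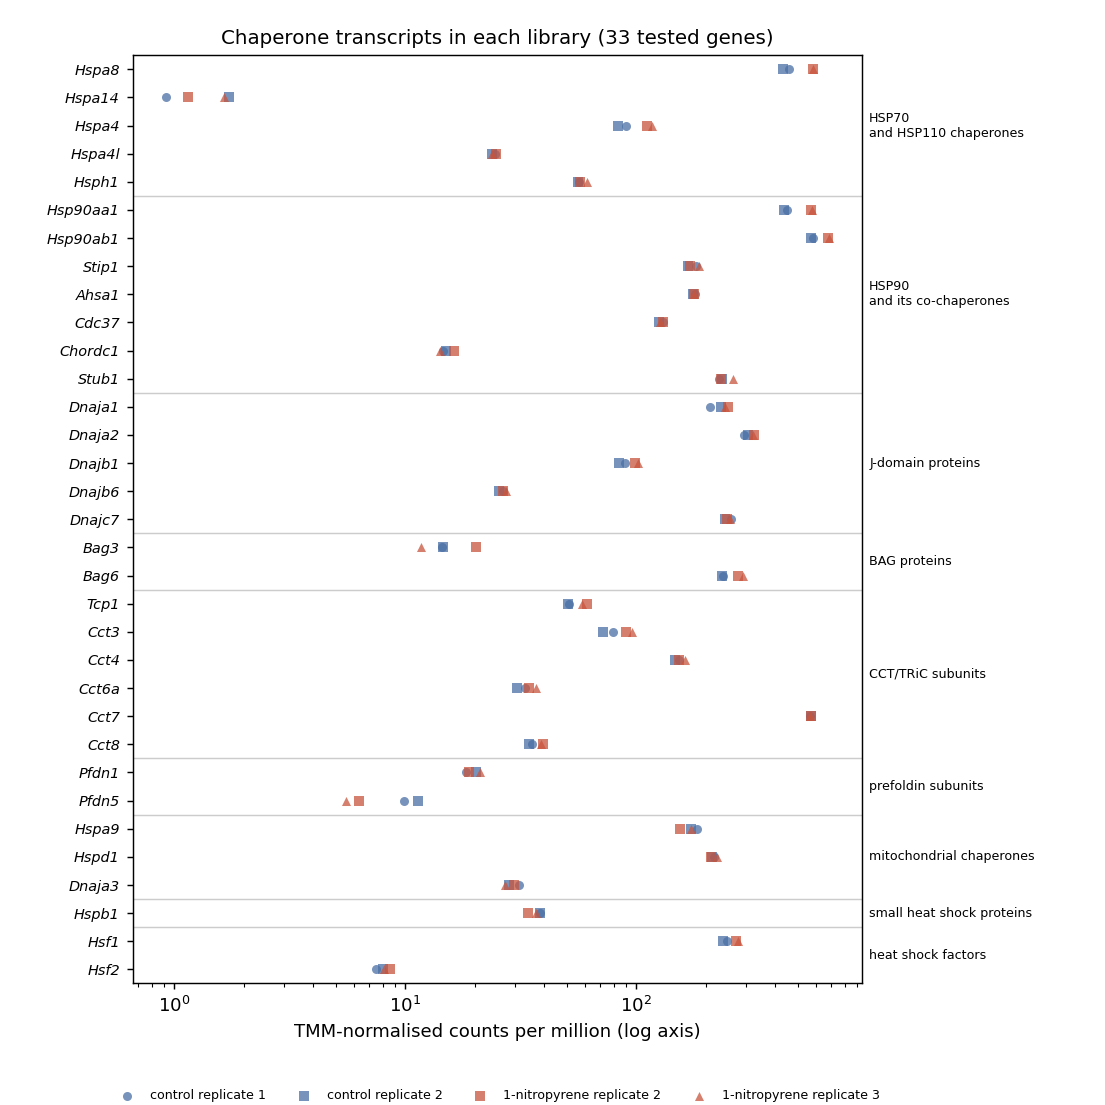
Each row is a tested chaperone gene and each point its TMM-normalised CPM in a library, on a log axis, with controls in blue and 1-nitropyrene libraries in red. Hspa8, Hspa4, Hsp90aa1 and Hsp90ab1 show red points clear to the right of blue ones, Cct7 shows all 4 libraries on top of each other, and Bag3 shows the blue pair between both red points.

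Among the HSP70 and HSP110 chaperones, the constitutive HSP70 gene Hspa8 and the HSP110 exchange factor Hspa4 rose, and the other 3 tested genes did not pass the test. Hspa8 (chr9:40800984-40810087, plus strand, GRCm38), which encodes the housekeeping HSC70 of the cytosol, had 461 and 433 CPM in control libraries and 582 and 581 CPM with 1-nitropyrene, a change of 0.38 on the log2 scale (SE 0.03, 95% interval of the ratio 1.24 to 1.36, adjusted p = 3.95e-27). The treated pair was nearly identical and lay well above both controls. Hspa4 (chr11:53259814-53300457, minus strand) had 90.2 and 83.3 CPM in control libraries and 111 and 117 CPM with 1-nitropyrene, a change of 0.39 on the log2 scale (SE 0.06, ratio 1.20 to 1.43, adjusted p = 1.13e-08), again without overlap.

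The HSP110 gene Hsph1, which HSF1 induces under heat shock, had 56.7 and 55.8 CPM in control libraries and 57.3 and 61.0 CPM with 1-nitropyrene (log2 fold change 0.07, adjusted p = 0.577), a separation that did not pass the test. Its relative Hspa4l had 24.4 and 23.6 CPM against 24.6 and 23.9 CPM, with overlapping groups. The ribosome-associated HSP70 Hspa14 was near the limit of the test, at 0.92 and 1.72 CPM in control libraries and 1.15 and 1.65 CPM with 1-nitropyrene, and the interval of its ratio, 0.549 to 2.33, allows a change in either direction. The stress-inducible HSP70 genes Hspa1a and Hspa1b were not tested, with 6 and 5 counts in all 4 libraries together. Hspa1a had 1 count in each control and 3 and 1 counts with 1-nitropyrene, while Hspa1b had 0 and 4 counts in control libraries and 1 and 0 with 1-nitropyrene. These genes repeat 74.0% and 78.5% of each other's transcript at 95% identity or more, so reads that fit both may have been dropped or split.

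Both cytosolic HSP90 genes rose, and none of the 5 tested co-chaperones was called in edgeR, DESeq2 or limma-voom, with 1 of them at an unadjusted edgeR p under 0.05. Hsp90aa1 (chr12:110690605-110702728, minus strand), the inducible HSP90 alpha, had 449 and 436 CPM in control libraries and 573 and 576 CPM with 1-nitropyrene (log2 fold change 0.38, SE 0.03, ratio 1.24 to 1.36, adjusted p = 9.35e-27). Hsp90ab1 (chr17:45567775-45573271, minus strand), the constitutive HSP90 beta, had 585 and 573 CPM against 674 and 682 CPM (log2 fold change 0.23, SE 0.03, ratio 1.12 to 1.22, adjusted p = 2.65e-11). The libraries of the groups did not overlap for either gene. The ratio of the Hsp90aa1 level to the Hsp90ab1 level was 0.766 and 0.76 in control libraries and 0.85 and 0.844 with 1-nitropyrene. Per kilobase of the union of annotated exons, Hsp90ab1 had the highest control level of all members, at 193 CPM per kb. Hsp90aa1 followed at 112 and Hspa8 at 104 CPM per kb. This union was 2999 bases for Hsp90ab1 and 4301 for Hspa8, where their longest protein-coding transcripts have 2520 and 2394 bases. The order may differ by transcript length, which was not tested.

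For the co-chaperones Ahsa1 and Cdc37 the intervals were narrow and held 1. Ahsa1, which stimulates the HSP90 ATPase, had 179 and 176 CPM in control libraries and 179 and 177 CPM with 1-nitropyrene, with a ratio between 0.935 and 1.07. Cdc37, which brings kinases to HSP90, had 131 and 125 CPM against 131 and 126 CPM (ratio 0.929 to 1.08). Stip1, the adaptor that holds HSP70 and HSP90 together, had 182 and 168 CPM against 171 and 187 CPM, and Chordc1 had 14.6 and 15.05 CPM against 16.3 and 14.1 CPM. For all 4 genes the groups overlapped. Stub1, the ubiquitin ligase CHIP that marks chaperone clients for degradation, had 229 and 235 CPM in control libraries and 233 and 263 CPM with 1-nitropyrene. Its adjusted p was 0.0853, and without 1-nitropyrene replicate 2 it was called (log2 fold change 0.18, adjusted p = 0.002133), while without 1-nitropyrene replicate 3 its log2 fold change was 0.007 (adjusted p = 0.9456). Stub1 shares 1084 bases of exon with the opposite-strand gene Jmjd8, and the strand setting of the counting is not given in the sources used here.

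Of the 5 tested J-domain proteins, the partners that start the HSP70 cycle, 3 rose. Dnajb1 (chr8:83608193-83612653, plus strand), the HSP40 first found through heat shock, had 89.9 and 84.6 CPM in control libraries and 98.6 and 102 CPM with 1-nitropyrene (log2 fold change 0.20, SE 0.06, ratio 1.05 to 1.249, adjusted p = 0.0133). Dnaja1 (chr4:40722150-40737149, plus strand) had 209 and 232 CPM against 249 and 242 CPM (log2 fold change 0.16, SE 0.04, ratio 1.05 to 1.19, adjusted p = 0.00178). Dnaja2 had 292 and 305 CPM against 324 and 322 CPM (log2 fold change 0.12, SE 0.04, ratio 1.03 to 1.14, adjusted p = 0.0179). In each the treated pair lay above the control pair, but for Dnaja1 the space between the pairs was smaller than the gap within the controls. None of the 3 was called by DESeq2, where the adjusted p was 0.1727 for Dnajb1, 0.1098 for Dnaja1 and 0.1778 for Dnaja2. Dnaja1 and Dnaja2 also lost the call without control replicate 1 (adjusted p = 0.4254 and 0.3466), Dnaja2 without 1-nitropyrene replicate 2 (0.07264), and Dnajb1 without control replicate 2 or without 1-nitropyrene replicate 3 (0.1795 and 0.09935). Dnaja1 shares 857 bases of exon with opposite-strand genes, Smu1 among them.

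Dnajc7, a J-domain protein that binds both HSP70 and HSP90, had 257 and 242 CPM in control libraries and 247 and 254 CPM with 1-nitropyrene (ratio 0.945 to 1.06). Dnajb6, which holds back the aggregation of polyglutamine proteins, had 26.5 and 25.5 CPM against 26.5 and 27.3 CPM. Dnajb4 had 3 counts in all and was not tested.

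Several BAG proteins bind HSP70 through a shared domain and help it release its client. Only 2 of the 6 BAG genes had enough counts, and of these Bag6 rose. Bag6 (chr17:35135178-35147322, plus strand), which shields membrane proteins on their way to the endoplasmic reticulum or to degradation, had 238 and 235 CPM in control libraries and 277 and 291 CPM with 1-nitropyrene (log2 fold change 0.26, SE 0.04, ratio 1.13 to 1.27, adjusted p = 1.32e-08). Bag3, the stress-inducible member that links HSP70 to autophagy and a textbook HSF1 target, had 14.4 and 14.6 CPM in the controls but 20.2 and 11.8 CPM with 1-nitropyrene. The treated libraries lay on either side of the control pair, and Bag3 was not called (log2 fold change 0.14, SE 0.16, adjusted p = 0.558). Without 1-nitropyrene replicate 3 it was called, with a log2 fold change of 0.48 and an adjusted p of 0.042, and without 1-nitropyrene replicate 2 its log2 fold change was -0.30 (adjusted p = 0.3364). Bag1, Bag2, Bag4 and Bag5 had 1, 0, 16 and 7 counts in all libraries together.

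TRiC is built from rings of 8 different subunits, each encoded by its own gene. Both called subunits, Tcp1 and Cct3, rose, and Cct7 was level. In 5 of the 6 tested subunits both treated libraries lay above both controls, against 30.0% of all genes tested. For Cct4 this rested on 153.4 CPM in control replicate 1 and 153.5 CPM in 1-nitropyrene replicate 2. Cct3 (chr3:88297116-88321767, plus strand) had 79.4 and 71.7 CPM in control libraries and 90.6 and 95.5 CPM with 1-nitropyrene (log2 fold change 0.29, SE 0.07, ratio 1.11 to 1.34, adjusted p = 0.000192). Tcp1 (chr17:12915701-12925067, plus strand), the first subunit described, had 51.4 and 50.7 CPM against 61.0 and 58.1 CPM (log2 fold change 0.22, SE 0.08, ratio 1.04 to 1.30, adjusted p = 0.0358). The call of Tcp1 was lost in DESeq2 (adjusted p = 0.266), and without control replicate 1 (0.1783), control replicate 2 (0.1551) or 1-nitropyrene replicate 2 (0.1943). Tcp1 also shares 712 bases of exon with the opposite-strand genes Acat3 and Mrpl18.

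Cct8 had 35.2 and 34.4 CPM in control libraries and 39.4 and 38.8 CPM with 1-nitropyrene (adjusted p = 0.241), and Cct6a had 32.9 and 30.5 CPM against 34.4 and 36.7 CPM. Cct4 had 153 and 147 CPM against 154 and 162 CPM (adjusted p = 0.377). For these 3 subunits the treated libraries lay above the controls by margins that did not pass the test. Cct7 had 564 and 569 CPM in control libraries and 571 and 566 CPM with 1-nitropyrene, with a ratio between 0.96 and 1.05.

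The subunit genes were read at very different levels although the protein complex holds them in equal number. Per kilobase of exon, the control mean was 83.6 CPM per kb for Cct7, 35.7 for Cct4, 11.9 for Cct3, 11.3 for Cct8, 10.2 for Tcp1 and 8.76 for Cct6a. On this scale Cct3 and Cct8 overlapped between the control libraries and cannot be ordered. The exon union of Cct3 has 6370 bases and its longest protein-coding transcript 1977, against 3088 and 2394 for Cct8. The order of the subunits may thus differ by transcript length, which was not tested. Cct2 and Cct5 lay far below, at 0.258 and 0.203 CPM per kb, with 25 and 21 counts over all 4 libraries, and were not tested. No other annotated transcript repeated 100 bases or more of Cct2 or Cct5 at 95% identity.

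**Figure D3:**
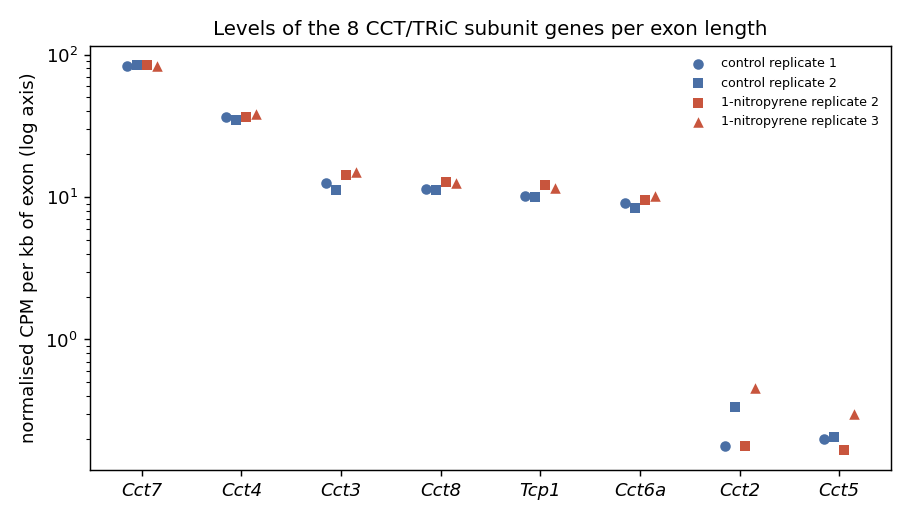
Normalised CPM per kilobase of exon is plotted on a log axis for the 8 TRiC subunit genes, 1 point per library. Cct7 and Cct4 lie above the others in all 4 libraries, and Cct2 and Cct5 lie under 1 CPM per kb in all 4.

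Prefoldin hands unfolded actin and tubulin to TRiC. Pfdn5 (chr15:102326116-102331873, plus strand), a subunit also known as a MYC-binding protein, had the largest change of any tested member and fell by 0.82 on the log2 scale (SE 0.22, ratio 0.42 to 0.763, adjusted p = 0.00151). It had 9.93 and 11.3 CPM in control libraries and 6.33 and 5.52 CPM with 1-nitropyrene, which did not overlap. DESeq2 gave Pfdn5 an adjusted p of 0.05586. Pfdn1 had 18.3 and 20.2 CPM in control libraries and 19.0 and 21.04 CPM with 1-nitropyrene, with overlapping groups. Pfdn2 and Pfdn4 had 5 and 0 counts in all.

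In mitochondria the groups overlapped for each of the 3 tested chaperone genes. Hspd1, the HSP60 chaperonin of the matrix, had 217 and 212 CPM in control libraries and 211 and 224 CPM with 1-nitropyrene (ratio 0.949 to 1.07). Hspa9, the matrix HSP70 known as mortalin, on chromosome 18, had 184 and 173 CPM in control libraries and 155 and 173 CPM with 1-nitropyrene. It was called lower (log2 fold change -0.13, SE 0.05, ratio 0.855 to 0.978, adjusted p = 0.039), but its call was lost in DESeq2 (adjusted p = 0.306), in limma-voom (0.07409), without control replicate 1 (0.5151) and without 1-nitropyrene replicate 2 (0.5846). Dnaja3, the J-domain partner of Hspa9, had 31.2 and 28.1 CPM against 29.6 and 27.0 CPM. Hspe1, which encodes the HSP10 lid of the HSP60 barrel, had 15 counts in all libraries together, where its partner Hspd1 had 7580. The mitochondrially encoded mRNAs summed to 46.9 and 30.4 CPM in control libraries and 24.6 and 1.86 CPM with 1-nitropyrene, here without TMM scaling. Both treated libraries lay below both controls but far apart from each other, with 1-nitropyrene replicate 2 near control replicate 2. The part of these mRNAs in the values of nuclear genes was not tested.

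Of the small heat shock proteins, which hold unfolded proteins without ATP, only Hspb1 was tested. Hspb1, known as HSP25 or HSP27, had 38.4 and 38.4 CPM in control libraries and 34.2 and 36.8 CPM with 1-nitropyrene. Both treated libraries lay below the controls, but the difference did not pass the test (log2 fold change -0.12, adjusted p = 0.445). Hspb8 had 4 counts in all.

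The gene of the regulator itself, Hsf1 (chr15:76477422-76501913, plus strand), had 248 and 238 CPM in control libraries and 271 and 277 CPM with 1-nitropyrene, and rose by a log2 fold change of 0.17 (SE 0.04, ratio 1.06 to 1.19, adjusted p = 0.000523). HSF1 is controlled mostly through its protein, which was not measured. Hsf2 had 7.45 and 8.03 CPM against 8.63 and 8.11 CPM and was not called. Of 25 textbook HSF1-induced genes, 20 of which are among the 46 chaperones, 16 were tested, 7 were higher and 1 was lower. That is 43.8% and 6.25%, against 13.2% and 11.2% of all genes tested. All 16 but Serpinh1 averaged above 10 CPM, and of the 4698 genes that reached this level 19.8% were higher and 14.4% lower. The targets called higher were Hspa8, Hsp90aa1, Hsp90ab1, Dnaja1, Dnajb1, Tcp1 and the HSP90-binding immunophilin Fkbp4. Tested but not called were 8 targets: Hsph1, Hspa4l, Hspb1, Hspd1, Bag3, Chordc1, Ahsa1 and Stip1. Lower was Serpinh1, the collagen chaperone of the endoplasmic reticulum, named after its values were seen, with 4.88 and 5.16 CPM in control libraries and 2.53 and 1.76 CPM with 1-nitropyrene (log2 fold change -1.21, adjusted p = 0.00281). The inducible genes Hspa1a, Hspa1b, Dnajb4, Hspb8 and Hspe1 were among the 9 too low to test.

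Heat shock elements were searched in the 250 bases before each gene start of a RefSeq promoter table (GRCm38.p6), which held 38 of the 46 genes. The motif of 2 units was GAANNTTC or TTCNNGAA and that of 3 units GAANNTTCNNGAA or TTCNNGAANNTTC, read on both strands. At least 1 match of 2 units lay before 13 of the 38 genes (34.2%), against 14.5% of all 27025 genes in the table and 11.5% of the 5531 of them tested here. A match of 3 units lay before Dnajb6, Hspd1 and Hspe1 (7.89% of the 38), against 0.514% of all genes. By call, 1 of the 7 higher members in the promoter table had a match of 2 units, against 6 of 18 not called and 6 of 12 not tested. Missing from it were Hspa8, Hsp90aa1, Hsp90ab1 and Hsf1, all called higher, and Hspa9, Bag4, Cct4 and Pfdn1. The share among higher members thus leaves out those with the most counts. These shares are descriptions, overlapping motifs count as 1 gene, and a match is not a binding site. The stretches below are shown because they span the called and uncalled ends of the set, 30 bases each, 5′ to 3′ on the gene's strand, with the match in capitals.
Dnaja1, called higher, chr4:40722333-40722362, plus strand: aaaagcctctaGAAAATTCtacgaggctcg
Hspa1a, too low to test, chr17:34972242-34972271, minus strand: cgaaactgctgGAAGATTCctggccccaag
Dnajb6, not called, chr5:29735844-29735873, plus strand: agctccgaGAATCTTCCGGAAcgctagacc
Hspd1, not called, chr1:55088053-55088082, minus strand: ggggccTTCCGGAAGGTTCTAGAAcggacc
Hspe1, too low to test, the same bases on the plus strand: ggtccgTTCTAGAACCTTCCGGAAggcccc
Hspb1, not called, chr5:135887801-135887830, plus strand: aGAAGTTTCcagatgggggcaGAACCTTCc
Cct5, too low to test, chr15:31601862-31601891, minus strand: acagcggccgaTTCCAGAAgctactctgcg

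The stretches of Hspa1a and Hspb1 lie outside annotated exons, while those of Dnaja1, Dnajb6, Cct5 and the pair Hspd1 and Hspe1 lie in exons of some transcript, since these genes have several starts or a neighbour on the other strand. The match of Hspa1a begins 104 bases before its start. That of Dnaja1 begins 124 bases before 1 of its 3 starts, the only 1 of them with a match, and lies inside the annotated gene. Hspd1 and Hspe1 are transcribed away from each other and share 1 stretch with an unbroken run of alternating units, yet Hspd1 had a control level of 81.3 CPM per kb and Hspe1 was too low to test.

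Several abundant chaperone genes have near-identical copies elsewhere in the genome, annotated as processed pseudogenes, and how reads that map to several places were treated is not given in the sources used here. Copies that repeat at least 400 bases at 95% identity or more, and that held at least 100 counts together, were found for 5 tested members. They held 42.9% and 44.7% of the counts of Hspa8 plus its 5 copies in control libraries, and 43.1% and 43.3% with 1-nitropyrene. For Hspd1 the share was 39.8% to 41.4%, for Dnaja1 with 3 copies 33.0% to 34.4%, for Hspb1 29.4% to 33.6% and for Hsp90aa1 with 3 copies 21.4% to 23.9%. Between the groups these shares overlapped or touched, except for Hspb1, where both treated libraries lay above both controls. The Hspa8 copy Gm8355 alone had 8810 counts and rose by a log2 fold change of 0.42 (adjusted p = 3.85e-21). With the counts of the copies added, the log2 fold change was 0.36 for Hspa8, 0.37 for Hsp90aa1, 0.14 for Dnaja1, 0.01 for Hspd1 and -0.06 for Hspb1, and the numbers of members called stayed at 11 and 2. Levels of these 5 genes are uncertain by the size of these shares.

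**Figure D4:**
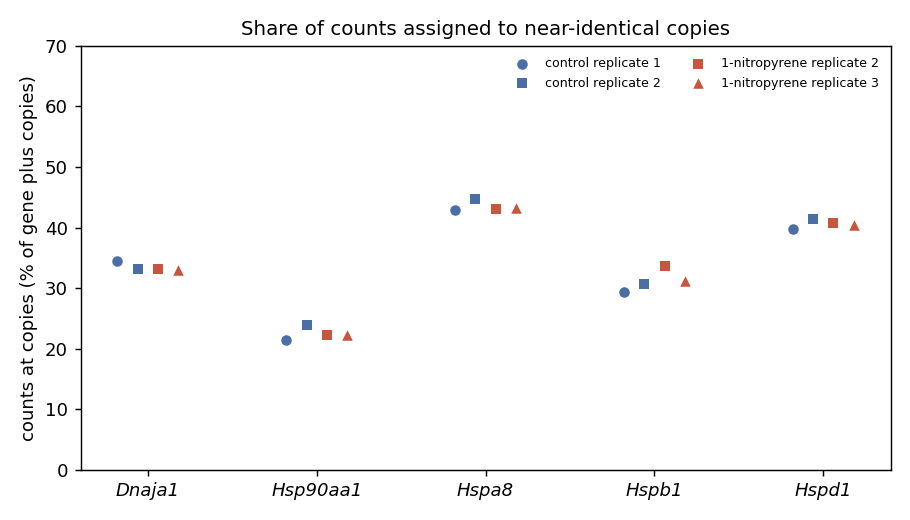
For each of the 5 genes, the share of counts at near-identical copies, in percent of the counts of gene and copies together, is plotted with 1 point per library. Hspa8 and Hspd1 lie near 40% in all 4 libraries, and controls and treated libraries differ by at most a few percentage points.

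The wider folding machinery was read from 103 further genes in 7 lists, of which 102 were in the table and 66 were tested. Of these 15 were higher and 4 lower (22.7% and 6.06%), against 13.2% and 11.2% of all genes tested, and their median log2 fold change was 0.03. Of the 17 tested HSP70 relatives and HSP70 or HSP90 adaptors, 4 were higher. Fkbp4, which rides on HSP90 with steroid receptors, had 245 and 227 CPM in control libraries and 326 and 323 CPM with 1-nitropyrene (log2 fold change 0.45, adjusted p = 3.73e-26). Fkbp8, an anchored immunophilin of the mitochondrial surface, had 87.4 and 86.9 CPM against 114 and 116 CPM (0.40, adjusted p = 3.34e-09), and the HSP70 gene Hspa2 had 44.8 and 43.9 CPM against 58.7 and 61.5 CPM (adjusted p = 5.31e-06). The log2 fold changes of Fkbp4, Hspa2 and Fkbp8 were above that of any tested member, a difference that was not tested. The other one higher was the import receptor Tomm70a, and those lower were the HSP70 cofactor St13 and the kinase-assembly factor Telo2, all 3 named after their values were seen. St13 had 69.2 and 70.9 CPM in control libraries and 57.2 and 56.3 CPM with 1-nitropyrene (log2 fold change -0.30, adjusted p = 0.000876).

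Among chaperones that meet the chain at or after the ribosome and the ubiquilins, 7 of 10 tested genes were higher. The share higher was 13.2% among all genes tested and 19.8% among those with a mean of at least 10 CPM. DESeq2 called 4 genes of this list higher, and limma-voom 6. Btf3, a subunit of the nascent polypeptide-associated complex, had 207 and 214 CPM in control libraries and 267 and 258 CPM with 1-nitropyrene (log2 fold change 0.32, adjusted p = 4.73e-12). The ubiquilins Ubqln2 and Ubqln4, which carry clients to the proteasome, rose by log2 fold changes of 0.29 and 0.22. Ubqln1 had 3.59 and 3.44 CPM in control libraries and 2.19 and 2.59 CPM with 1-nitropyrene. It was not called (log2 fold change -0.56, adjusted p = 0.270). Bag6, described above, acts with Get4 and Ubl4a of the same list, and these genes, named after their values were seen, also were called higher. Sgta and Asna1 of that list were not called (log2 fold changes -0.35 and 0.09, adjusted p = 0.361 and 0.374). Of 7 prefoldin-like genes and TRiC assistants 2 were higher: Uri1 had 84.1 and 93.7 CPM against 119 and 109 CPM (0.38, adjusted p = 3.72e-08), and Uxt had 26.0 and 31.8 CPM against 41.8 and 42.9 CPM (0.58, adjusted p = 5.18e-07). Uri1 and Uxt are partners in a prefoldin-like complex, and their direction was opposite to that of Pfdn5. Of the 7 genes only Pdrg1 had a negative log2 fold change (-0.17, adjusted p = 0.312), and it was not called.

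Among 12 tested mitochondrial chaperones and proteases 2 were lower. Afg3l2, a protease of the inner membrane, had 92.8 and 90.6 CPM in control libraries and 71.0 and 72.3 CPM with 1-nitropyrene (log2 fold change -0.36, adjusted p = 2.91e-06), and the J-domain protein Dnajc19 had a log2 fold change of -0.28 (adjusted p = 0.0421). Of 15 further J-domain genes 0 were called in edgeR, DESeq2 or limma-voom, with 2 at an unadjusted edgeR p under 0.05. Among 5 tested factors that regulate or import HSF1 and HSP70, Eef1a1 (log2 fold change 0.39) and Hikeshi (0.17, adjusted p = 0.0194) were higher. All 8 further small heat shock and crystallin genes were too low to test.

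**Figure D5:**
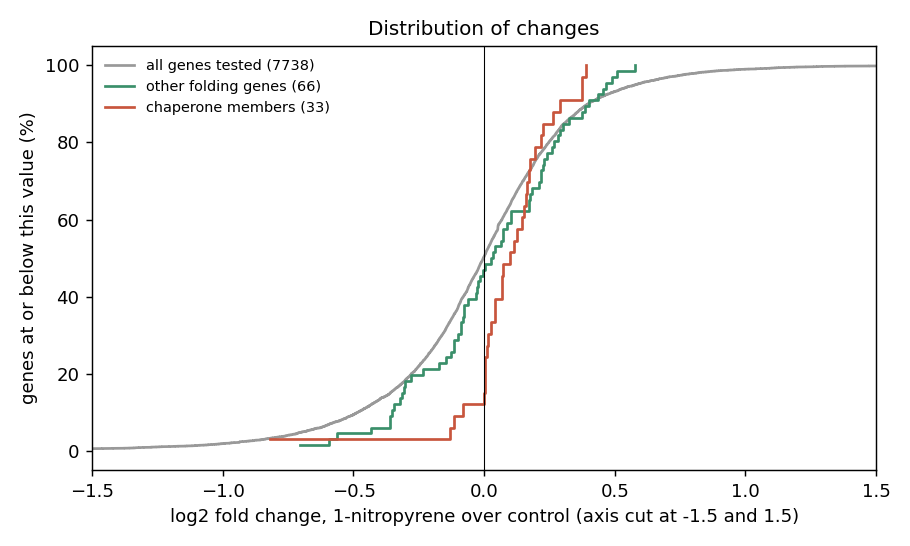
The share of genes at or below each log2 fold change, in percent, is drawn for all 7738 genes tested, the 66 other folding genes and the 33 chaperone genes, on an axis that leaves out the far tails. The chaperone curve crosses 0 near the bottom of the plot, since 28 of 33 values are positive, and ends before 0.5, short of the right tail of all genes.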

How the data were processed

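Polyadenylated RNA of 4 libraries (2 control, 2 treated with 1-nitropyrene) was sequenced with a stranded library kit, per the labels' protocols. The authors deposited raw counts per gene with no normalization. HISAT2 2.1.0, featureCounts 1.6.3, DESeq2 and GRCm38 (mm10) are named without roles, per the submitters' processing notes. No source used here gives the annotation release, the strand setting or the treatment of multiply mapped reads. Of 53465 identifiers, 105 were not found in GENCODE M21 (GRCm38), which gave symbols, coordinates and exon lengths.

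Counts were tested with edgeR 4.0.16 in R 4.3.3 (filterByExpr, TMM, quasi-likelihood fit with legacy FALSE, intercept and treatment, two-sided, Benjamini-Hochberg adjustment over all 7738 genes tested, called at an adjusted p under 0.05). The dispersion was 0.000546 and the prior had infinite degrees of freedom. The spread of a gene thus came from a trend over abundance, and a standard error takes no account of a gene's own replicates. Standard errors were taken as |log2 fold change| over the root of F. CPM values are TMM-normalised, except the limit of 3 counts, the mean of at least 10 CPM and the mitochondrially encoded mRNAs. Exon length is the union of exons. Intervals are at the 95% level. No 2 libraries were alike within sampling noise: chi-square per degree of freedom was 1.62 for the control pair and 2.05 for the 1-nitropyrene pair. The limit of 3 counts covers counting error only.

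The members and all gene lists were chosen with earlier results of these data known. Every member was accounted for. Values per library were given for called members, for Hspa1a, Hspa1b, Dnajb1, Hspb1, Bag3 and Hsf1, and for both ends of each role group, and up to 3 called genes with the smallest p were named from each further list. Copies were sought with blastn 2.17.0+ among annotated transcripts. Alternatives were other scaling, other filters, DESeq2 1.42.0, limma-voom (limma 3.58.1), an adjusted p of 0.01, each library left out, and, added after seeing the data, the counts of copies. With 1 library left out, the lone library is assumed to vary like the other pair. Tested on simulated counts of the 7738 genes in this comparison, the fit recovered 42% of genes changed 1.25-fold, 64% at 1.5-fold and 96% at 2-fold, and 6.87% of calls were unchanged genes. These counts were drawn with the same dispersion for every gene, set apart from the fitted one. The shares may therefore differ for the real libraries. Protein sequences planned for description were not used here.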

Additional observations from a re-analysis of the deposited data

How the results depend on the processing

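Of the 13 chaperone genes called, 7 (Hspa8, Hspa4, Hsp90aa1, Hsp90ab1, Bag6, Cct3 and Hsf1) were called in all 17 alternative settings, and none of the 13 changed sign. Of the 20 not called, 12 changed sign in at least 1 setting. The number of members higher, 11, became 7 in DESeq2 and lay between 8 and 11 with each library left out. The number lower, 2, became 1 without the filter on low counts, with a mean of at least 10 CPM, in limma-voom and at an adjusted p of 0.01, and lay between 1 and 2 with each library left out. It became 0 in DESeq2, which had 1 at an unadjusted p under 0.05. The 4 other folding genes lower became 2 without the filter, in DESeq2 and at an adjusted p of 0.01, and 2 to 5 with each library left out. Tcp1 also lost its call with upper-quartile scaling, without scaling, without the filter and at a mean of at least 10 CPM, and Dnaja2 without scaling. Over all genes, the 1024 higher and 870 lower became 514 and 316 in DESeq2, 763 and 532 without the filter, and 690 and 511 without control replicate 1. The cause was not tested. No paired analysis was possible because the groups share only replicate number 2. The 13 members with at most 25 counts in all were too low to test, and whether depth or the counting left them low was not tested.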
